A study of Mus musculus with 4 samples.

Results

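The Ifi200 family is a group of interferon-inducible genes that lie side by side on mouse chromosome 1, and 8 of its genes, Ifi202b, Ifi203, Ifi204, Ifi205, Mndal, Mnda, Pyhin1 and Aim2, were followed here in C3H10T1/2 cells with and without 5-AZA, together with every circRNA whose listed host gene is one of them. The mRNA profile held 21878 genes, and the 8 members accounted for 49 of its 75959 transcripts. The members were chosen from earlier results of the same contrast, in which linear Ifi202b and a circRNA listed under Ifi202b were both higher after 5-AZA. Their changes are therefore given as a description without a p-value.

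C3H10T1/2 is a multipotent mesenchymal cell line derived from C3H mouse embryos, while 5-azacytidine, or 5-AZA, is a nucleoside analogue taken up into DNA that blocks its methylation. Sequencing covered 2 untreated samples, numbered 1 and 2, and 2 samples, numbered 101 and 102, exposed to 20 μM 5-AZA for 72 hours and then kept for 21 days in fresh medium. No vehicle or culture time is given for the untreated samples, so the drug and the weeks of culture cannot be told apart. The paper calls the replicates biological repeats, while the labels do not say whether they were separate cultures. The SDs therefore measure the spread between these samples. Each SE comes from the limma fit, which also draws on the spread of the other genes or circRNAs tested. Of the skeletal muscle markers, 8 of 8 were called higher after 5-AZA, against 13.1% of all genes tested. Their summed levels were 786 and 1199 FPKM, against 1.18 to 1.54 FPKM in the untreated samples. The summed mesenchymal markers were at 1689 and 1883 FPKM against 2660 and 2760 FPKM, a fall carried by Vim, which encodes vimentin and was not called (1178 and 1380 against 2268 and 2406 FPKM). The other 8 markers summed to 511 and 503 FPKM after 5-AZA against 392 and 354 FPKM. This rise was carried mostly by Ly6a, which was not called (324 and 286 against 186 and 181 FPKM). Of the 9 markers, 7 lay higher and 2 lower in both 5-AZA samples. The median log2 fold change of the 8 tested was 0.52, and only Thy1 (12.5% of the 8) was called higher and none lower. In such bulk RNA, more cells of a type and more RNA per cell cannot be told apart, and the part of the muscle and mesenchymal transcripts in the results given here was not tested.

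Proteins of the Ifi200 (HIN-200) family carry HIN domains that bind DNA, and most also carry a pyrin domain that binds other proteins. Aim2 senses DNA in the cytosol and recruits the adaptor Pycard and Casp1 into an inflammasome, while p202, the product of Ifi202b, lacks the pyrin domain and can restrain Aim2. p204, the product of Ifi204, acts in DNA sensing through STING and is also known for a role in the differentiation of C2C12 myoblasts, where it overcomes inhibition of MyoD by Id proteins. The genes arose by duplication and remain alike in sequence, so reads can fit more than one of them and the level of a single member is less certain than that of the family.

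Interferon induces many genes through the interferon-stimulated response element, whose core is GAAA, 2 free bases and GAAA again, and the promoters of the members are shown because the members lie together and most moved together. The RefSeq table of mouse promoters (GRCm38.p6, 250 bases before and 50 after the start) held 7 of the 8 members. The sequences are those of the reference strain, C57BL/6J, and not of C3H cells. For each member the 140 bases before the start are printed 5′ to 3′ with the motif in capitals; where Mndal and Ifi203 had a second window, the one with the motif nearest the start is shown.
Mndal (chr1:173880188-173880327, minus strand): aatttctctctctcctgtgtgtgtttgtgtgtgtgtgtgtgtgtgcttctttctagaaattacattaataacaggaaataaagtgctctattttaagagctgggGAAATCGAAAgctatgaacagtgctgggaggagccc
Ifi203 (chr1:173942493-173942632, minus strand): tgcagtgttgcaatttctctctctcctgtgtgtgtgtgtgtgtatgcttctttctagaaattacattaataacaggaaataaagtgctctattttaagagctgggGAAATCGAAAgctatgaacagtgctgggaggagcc
Mnda (chr1:173913047-173913186, minus strand): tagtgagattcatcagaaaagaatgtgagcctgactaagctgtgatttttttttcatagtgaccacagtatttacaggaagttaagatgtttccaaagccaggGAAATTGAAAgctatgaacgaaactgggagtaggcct
Ifi205 (chr1:174031756-174031895, minus strand): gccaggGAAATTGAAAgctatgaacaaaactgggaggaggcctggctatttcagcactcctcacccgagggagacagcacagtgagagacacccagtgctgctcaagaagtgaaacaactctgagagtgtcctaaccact
Ifi202b (chr1:173982845-173982984, minus strand): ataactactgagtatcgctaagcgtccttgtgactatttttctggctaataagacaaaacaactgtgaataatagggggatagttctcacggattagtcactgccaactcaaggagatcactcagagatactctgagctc
Aim2 (chr1:173420464-173420603, plus strand): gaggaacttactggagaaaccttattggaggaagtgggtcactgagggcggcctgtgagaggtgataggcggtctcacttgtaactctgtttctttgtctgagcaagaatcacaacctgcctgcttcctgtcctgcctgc
Pyhin1 (chr1:173630719-173630858, plus strand): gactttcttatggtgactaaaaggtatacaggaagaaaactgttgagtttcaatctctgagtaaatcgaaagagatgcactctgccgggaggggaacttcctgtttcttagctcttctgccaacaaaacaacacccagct
Searched on both strands, the motif was present in 4 of 7 member promoters (57.1%), against 1079 of 27025 genes with a promoter (3.99%). It began 36, 35 and 37 bases before the start in Mndal, Ifi203 and Mnda, and 134 bases before it in Ifi205. Mndal and Ifi203 share the free bases TC, whereas Mnda and Ifi205 share TT. The letters were not in these C57BL/6J windows of Ifi202b, Aim2 and Pyhin1. Whether C3H cells carry them was not examined. The other 4 genes of the family in the mRNA profile all held the motif, as did 17 of 30 other interferon-stimulated genes (56.7%) with a promoter in the table. The windows of Mndal and Ifi203 were 97.6% identical over 289 aligned bases, and those of Mnda and Ifi205 94.0% identical over 201 bases. The median number of CG pairs, the dinucleotide that is methylated, was 2 in the members' windows and 7 over all genes. A motif match describes these letters only, and methylation was not measured in these samples.

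The summed level of the family was 3.48-fold higher after 5-AZA. The 8 members together had 26.9 and 22.3 FPKM (fragments scaled to transcript length and library size) in the untreated samples and 91.8 and 79.5 FPKM after 5-AZA, or 24.6 ± 3.24 against 85.6 ± 8.76 FPKM (SD, n = 2 each). On the log2 scale the difference was 1.80, with an SD within groups of 0.17. Ifi202b, Ifi204 and Ifi203 supplied most of this level in every sample.

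Ifi202b, which encodes the Aim2 antagonist p202, had 8.13 and 6.87 FPKM in the untreated samples and 30.1 and 27.6 FPKM in the 5-AZA samples. Both treated values lay above both untreated values, and the log2 fold change was 1.93 ± 0.13 (SE). By level it moved from rank 5758 and 6177 of the 21878 genes to rank 1870 and 2248. Its share of the family's summed level stayed between 30.3% and 34.7% in the 4 samples. Both of its transcripts are curated RefSeq entries.

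Ifi204, which encodes p204, had 7.23 and 7.18 FPKM in the untreated and 22.8 and 20.7 FPKM in the 5-AZA samples. The groups did not overlap, and the log2 fold change was 1.58 ± 0.12 (SE), the lowest of the members that passed the call rule. Its untreated values were nearly equal as a sum over its transcripts, but the split between them was not. The curated transcript NM_008329.2 had 1.86 and 6.86 FPKM in the untreated and 22.1 and 20.0 FPKM in the 5-AZA samples, while the predicted transcript XM_006496675.3 had 5.38 FPKM in untreated replicate 1 and 0.317 to 0.686 FPKM in the other samples. With the curated transcript alone the log2 fold change was 2.52.

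Ifi203, a family member with a pyrin and a HIN domain, had 4.74 and 3.34 FPKM in the untreated and 18.8 and 14.0 FPKM in the 5-AZA samples. The log2 fold change was 2.00 ± 0.21 (SE), and the groups did not overlap. Ifi203 has 9 transcripts in the profile.

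Mnda, listed in RefSeq as Ifi211, had 1.75 and 1.48 FPKM in the untreated and 7.60 and 7.26 FPKM in the 5-AZA samples. It shares its listed name with the human myeloid cell nuclear differentiation antigen. The difference of 2.14 ± 0.18 (SE) on the log2 scale came with little spread within either group.

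Mndal had 2.11 and 0.857 FPKM in the untreated and 9.22 and 5.53 FPKM in the 5-AZA samples. Its log2 fold change of 2.32 ± 0.39 (SE) was the highest among the called members but also the least precise of them, and it was 1.72 without untreated replicate 2 and 2.92 without untreated replicate 1. The groups did not overlap.

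Aim2, the DNA sensor of the inflammasome, was nearly level, with 2.86 and 2.58 FPKM in the untreated and 3.19 and 3.37 FPKM in the 5-AZA samples. The log2 fold change was 0.26 ± 0.18 (SE), and it was -0.02 after quantile normalization and -0.19 with its 1 curated transcript out of 24. Aim2 made up 10.7% and 11.6% of the family's summed level in the untreated samples and 3.47% and 4.24% in the 5-AZA samples. Its rank stayed between 8785 and 8953.

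Ifi205 and Pyhin1 were at or near the limit of detection. Ifi205 was at effectively 0 in both untreated samples and had 0.0685 FPKM in 5-AZA replicate 101 and 0.923 FPKM in replicate 102. A single sample therefore carried nearly all of its level, and its log2 fold change was 0.52 with a pseudocount of 1 FPKM, 2.05 ± 0.74 (SE) with 0.1 FPKM and 4.76 with 0.01 FPKM. Pyhin1, listed in RefSeq as Ifi209, had 0.0531 and 0 FPKM in the untreated and 0.0643 and 0.136 FPKM in the 5-AZA samples, which was below the mean of 0.1 FPKM needed for the fit.

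**Figure D1:**
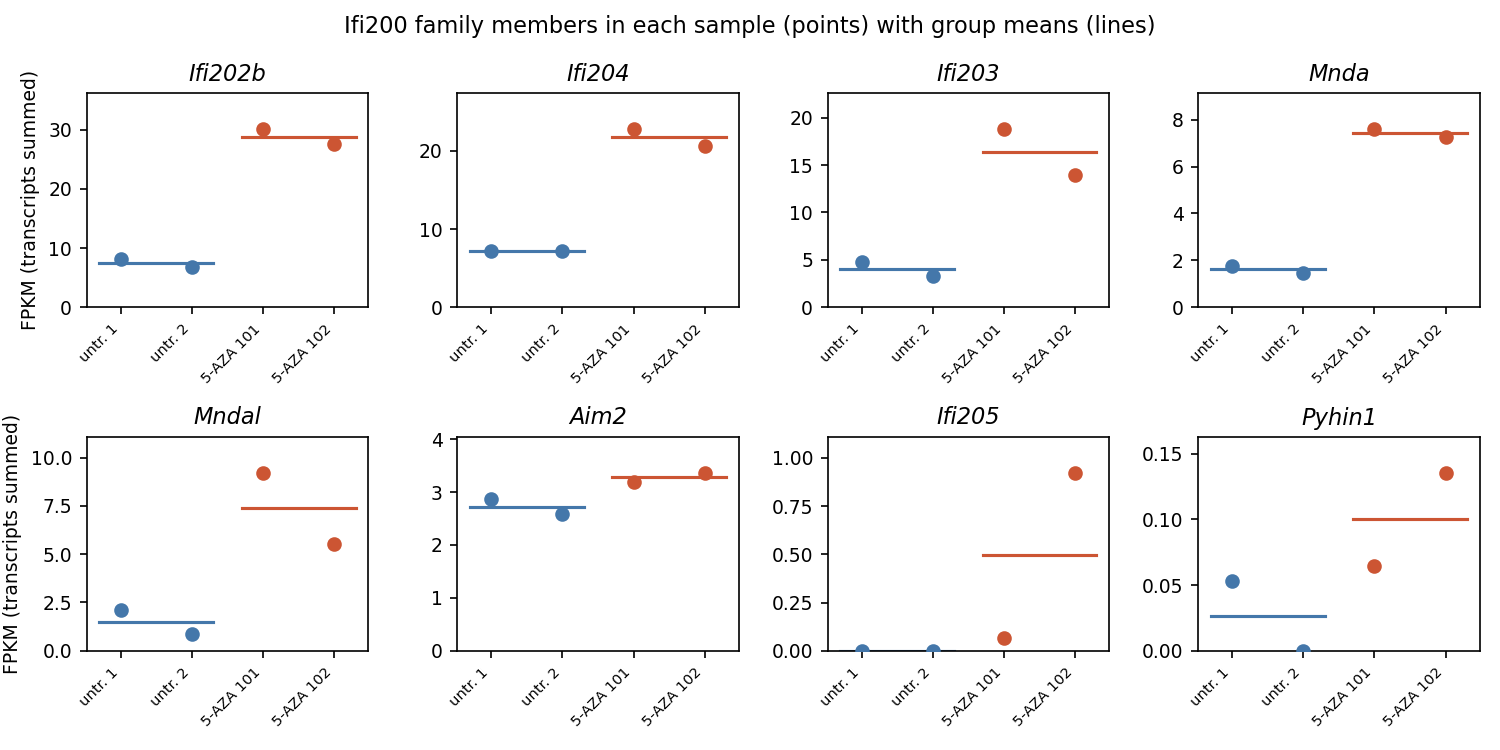
FPKM of each member, summed over its transcripts, in the 4 samples; blue points are untreated, red points are 5-AZA, lines are group means, and each panel has its own axis from 0. Ifi202b, Ifi204, Ifi203, Mnda and Mndal show wide gaps between the groups, Aim2 a narrow one, and Ifi205 rests on 5-AZA replicate 102.

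All 7 tested members had both 5-AZA values above both untreated values, against 36.8% of the 13199 genes tested. So did Pyhin1, which was not tested, but Pyhin1 and Ifi205 were near 0 in most samples. By limma with Benjamini-Hochberg adjustment over all genes (adjusted p below 0.05 and over 2-fold), 5 of the 7 members with enough signal to be tested were called higher, where 13.1% of all genes tested were called higher and 1.32% lower. Since the members were chosen on this contrast, these counts are a description only. The median log2 fold change of the 7 tested members was 2.00, and that of all tested genes was 0.05. Ifi205 is among the 7, although it reached the limit for testing only through 5-AZA replicate 102. Its fold change depended on the pseudocount. When single samples were dropped, the log2 fold change ran from 1.81 to 2.05 for Ifi202b and from 1.51 to 1.65 for Ifi204. It ran from 1.75 to 2.25 for Ifi203, from 2.02 to 2.25 for Mnda and from 1.72 to 2.92 for Mndal. Fewer members were called when 5-AZA replicate 101 or 102 was dropped. These fits reuse the contrast on which the members were chosen, so they give no independent support for any member.

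Levels also differed among the members. In the untreated samples Ifi202b (7.50 ± 0.894 FPKM) and Ifi204 (7.20 ± 0.0387 FPKM) did not differ beyond their spread, followed by Ifi203 (4.04 ± 0.995 FPKM), Aim2 (2.72 ± 0.203 FPKM), and Mnda (1.62 ± 0.191 FPKM) and Mndal (1.48 ± 0.882 FPKM), which did not differ from each other beyond their spread (SD, n = 2). After 5-AZA the order was Ifi202b (28.9 ± 1.80 FPKM), Ifi204 (21.7 ± 1.5 FPKM), Ifi203 (16.4 ± 3.39 FPKM), then Mnda (7.43 ± 0.243 FPKM) and Mndal (7.37 ± 2.61 FPKM), again within each other's spread, and Aim2 (3.28 ± 0.124 FPKM). Aim2 thus stood above Mnda and Mndal in the untreated samples and below both after 5-AZA.

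The 4 further family genes in the mRNA profile were also mostly higher. Over all genes tested, 13.1% were called higher. AI607873 (RefSeq Ifi207) had 1.57 and 1.13 FPKM in the untreated and 6.75 and 4.03 FPKM in the 5-AZA samples (log2 fold change 1.89, limma adjusted p = 0.00127). Pydc4 (RefSeq Ifi213) and Pydc3 (RefSeq Ifi208), named after their values were seen, stayed below 1 FPKM and had log2 fold changes of 2.10 (adjusted p = 0.00449) and 1.40 (adjusted p = 0.0188). BC094916 (RefSeq Ifi214) was too low to be tested. So 3 of 3 tested genes were called higher, and this count was 0 without 5-AZA replicate 101, 1 without 5-AZA replicate 102, and 2 without either untreated sample.

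The genes beside the cluster were at or near 0 FPKM, unlike most of its members. Pyhin1 was near 0 as well, as was Ifi205 in all but 5-AZA replicate 102. The cluster spans chr1:173349547-174031755 (GRCm38.p6, 682209 bases), from Aim2 (173349547 to 173466040) through Pyhin1 (173630859 to 173647928), Ifi204 (173747293 to 173767069), Mndal (173857215 to 173880382), Mnda (173896339 to 173913087), Ifi203 (173920400 to 173942866) and Ifi202b (173962569 to 173982844) to Ifi205 (174011998 to 174031755). Of the 5 nearest genes of the profile on either side, 9 of 10 were at 0 FPKM in all 4 samples. Cadm3, a cell adhesion gene, had 0.0125 FPKM in 5-AZA replicate 102 only. Those at 0 were Fcer1a, Mptx2, Ackr1 and the olfactory receptor genes Olfr418, Olfr427, Olfr429, Olfr430, Olfr432 and Olfr433. None of the 10 had enough signal to be tested, so they say nothing of change beside the cluster.

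A circRNA is made when a splice donor joins to an upstream acceptor, and it is counted by reads across this junction, so it can be compared with the linear mRNA of its host. The circRNA profile gave RPM (junction reads scaled to sequenced reads), from which 10448 to 13388 junction reads per sample were recovered out of 92903364 to 93920706 reads. Of 4295 circRNAs, 4 had a member as host, all on the minus strand. All 4 had their ends in different family genes, and none of the 4 carried a circBase identifier. In the whole profile, 37 circRNAs (0.861%) had their ends in different protein-coding genes, whether or not these were of the same family.

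circRNA_0241, listed under Ifi202b, covered chr1:173912814-173982741, or 69928 bases. By the RefSeq spans of the reference strain, one end lay 103 bases inside the 5′ end of Ifi202b. The other lay 273 bases inside the 5′ end of Mnda, and Ifi203 lay wholly between them. It had 44 and 52 junction reads in the untreated samples and 234 and 194 in the 5-AZA samples. That was 0.473 and 0.557 RPM against 2.52 and 2.07 RPM, or 0.515 ± 0.0589 against 2.29 ± 0.320 RPM (SD, n = 2 each), a 4.45-fold difference with no overlap. It ranked 28 and 22 among circRNAs in the untreated samples and 3 in both 5-AZA samples. Its share of all junction reads was 0.331% (95% exact binomial interval 0.241 to 0.444%) and 0.388% (0.290 to 0.509%) in the untreated samples, and 2.15% (1.88 to 2.44%) and 1.86% (1.61 to 2.13%) in the 5-AZA samples, where the intervals cover counting error only. With 524 reads in all, it was the most read of the 37 circRNAs whose ends lie in different genes. The next, between Nfix and Farsa, had 61. Others among the 37 also joined genes of the same family. Reads in untreated 1 and 2 and 5-AZA 101 and 102 were 5, 0, 21 and 23 for Ifit3 with Ifit1bl1 and Ifit3b. They were 0, 0, 8 and 2 for Trim30a with Trim30d, 3, 4, 9 and 0 for H2-T22 with H2-T-ps, and 14, 0, 0 and 0 for Cyp4f16 with Cyp4f37. Only 92 of the 4295 circRNAs (2.14%) span as many bases.

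The others were seen in untreated replicate 1 only. circRNA_0239, between Mndal and Ifi203 (chr1:173874351-173935177), had 51 reads there and 0 in each other sample. circRNA_0238, between Mndal and Mnda (chr1:173871378-173905631), had 3 reads, and circRNA_0240, between Mndal and Ifi203 (chr1:173875576-173936639), had 2. In the same sample the predicted Ifi204 transcript stood out from the other 3 samples as well. Reads that fit several alike genes were not told apart from true junctions between these genes here, and no junction sequence was analysed.

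**Figure D2:**
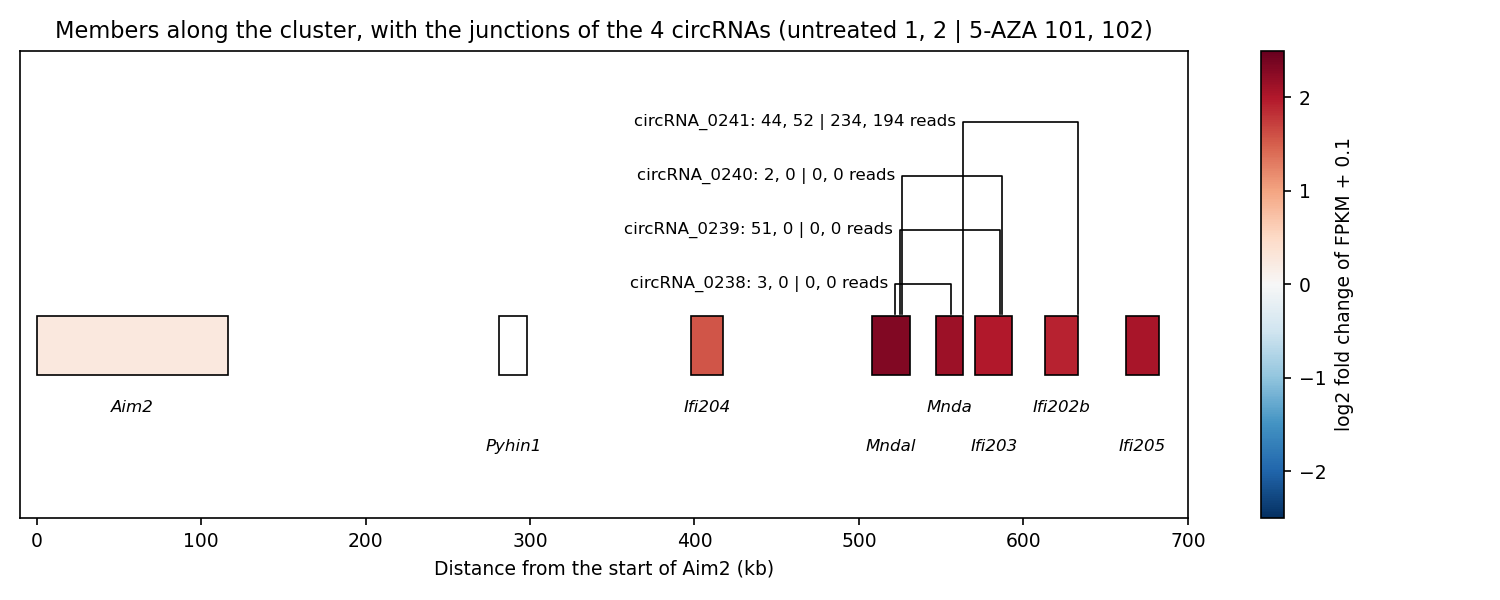
Positions of the 8 members by distance in kb from the start of Aim2, coloured by log2 fold change (white, Pyhin1, not tested), with brackets joining the ends of the 4 circRNAs and their reads in each sample. All 4 brackets join different genes between Mndal and Ifi202b, and only circRNA_0241 has reads in more than 1 sample.

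circRNA_0241, listed under Ifi202b, and linear Ifi202b were both higher after 5-AZA. With its ends in different genes, circRNA_0241 is not shown to be a circle of Ifi202b alone. The log2 fold change was 2.11 ± 0.16 (SE) for circRNA_0241 and 1.93 ± 0.13 (SE) for linear Ifi202b. The difference of these changes, circular minus linear, was 0.17, less than the SD within groups of 0.25, and it ranged from -0.06 without untreated replicate 1 to 0.41 without untreated replicate 2. Per FPKM of linear Ifi202b, there were 0.0582 and 0.0810 RPM of the circRNA in the untreated and 0.0836 and 0.0749 RPM in the 5-AZA samples, so that the groups overlapped. Linear Mnda, the gene at the other end of the circRNA, had a log2 fold change of 2.14 ± 0.18 (SE). Per FPKM of Mnda, the ratio was 0.270 and 0.376 against 0.331 and 0.285, which overlapped too. With 2 samples a group, a small shift in this ratio was not detectable.

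**Figure D3:**
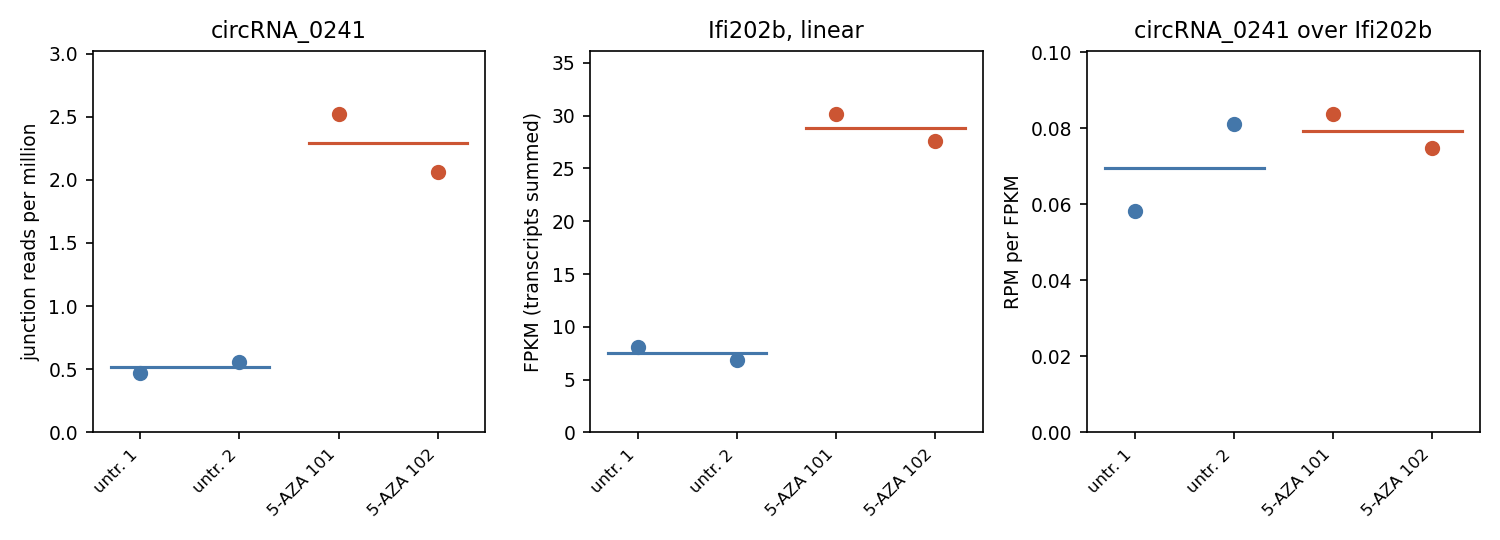
Junction reads of circRNA_0241 in RPM (left), FPKM of linear Ifi202b (middle) and the ratio of the former to the latter (right) in the 4 samples, with group means as lines and axes from 0. The first 2 panels separate the groups, and the ratio does not.

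Total junction reads were fewer after 5-AZA (10905 and 10448) than in the untreated samples (13282 and 13388), and scaled to them the log2 fold change of circRNA_0241 was 2.43. Over the 1360 circRNAs detected in at least 2 samples, limma called 0% higher and 0% lower, and voom on the recovered reads called none. At an unadjusted limma p below 0.05, 91 (6.69%) stood higher and 160 (11.8%) lower. The paper, by a negative binomial test in DESeq, reported circRNAs that differed in both directions. That test was not run here, so these results come from unlike tests. circRNA_0241 passed the call rule only when the fit was limited to the 381 circRNAs detected in all 4 samples or widened to those detected in any. Its groups did not overlap, as for 14% of tested circRNAs in this direction.

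Genes around the family in its pathways were then examined. Among the AIM2 inflammasome and interleukin-1 genes, 3 of 9 tested (33.3%) were called higher and 1 lower, against 13.1% and 1.32% of all genes tested. Casp1, the protease of the inflammasome, had 0.0243 and 0.0742 FPKM in the untreated and 4.92 and 6.23 FPKM in the 5-AZA samples (log2 fold change 5.26, limma adjusted p = 5.32e-06). Pycard, the adaptor that joins Aim2 to Casp1, was at 0 FPKM in both untreated samples and had 0.919 and 1.13 FPKM after 5-AZA (adjusted p = 0.000129). Gsdmd, the pore-forming substrate of Casp1, had 0.0210 and 0.219 against 2.15 and 2.57 FPKM (log2 fold change 3.64, adjusted p = 0.00044). Il1rn, which encodes the interleukin-1 receptor antagonist, fell from 148 and 115 to 62.1 and 59.8 FPKM (log2 fold change -1.10, adjusted p = 0.000323). Il1a and Il1b, the interleukin-1 cytokines, were at 0 in all 4 samples. Gsdmd and Il1rn lost their calls without either 5-AZA sample and with no limit on low values, and Il1rn also without untreated replicate 1. The median log2 fold change of the 9 genes was 0.15.

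Of the genes for cytosolic DNA sensing and STING, 3 of 14 tested (21.4%, against 13.1% of all genes tested) were called higher and none lower. The median change of the list was 0.14 on the log2 scale. Irf7, a transcription factor for interferon genes, rose from 0.593 and 0.735 to 9.84 and 9.38 FPKM (log2 fold change 3.67, limma adjusted p = 4.46e-06). Zbp1, a sensor of Z-form nucleic acids, rose from 0.275 and 0.133 to 3.74 and 3.56 FPKM (log2 fold change 3.67, adjusted p = 4.05e-05). Tmem173, which encodes STING, had 0.423 and 0.571 against 1.39 and 0.978 FPKM (log2 fold change 1.10, adjusted p = 0.0278). It lay close to the 2-fold limit, and of the alternatives run it stayed called only with a pseudocount of 0.01 FPKM, with eBayes without trend and without untreated replicate 2. Zbp1 lost its call without either 5-AZA sample. Mb21d1, which encodes cGAS, the enzyme upstream of STING, was not called, with 1.17 and 1.11 against 1.40 and 1.21 FPKM.

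Of the interferon ligands, receptors and signalling genes, 4 of 13 tested (30.8%, against 13.1% of all genes tested) were called higher and none lower. The median log2 fold change was 0.42. Stat2 and Irf9 encode transcription factor subunits that act at the interferon-stimulated response element. Stat2 had 4.90 and 4.91 against 16.1 and 17.9 FPKM (log2 fold change 1.77, limma adjusted p = 2.32e-05), and Irf9 had 7.72 and 6.67 against 26.4 and 26.8 FPKM (1.87, adjusted p = 1.21e-05). Usp18, a negative regulator of the receptor, had 0.511 and 0.359 against 12.7 and 12.98 FPKM (4.61, adjusted p = 1.96e-06). Stat2, Irf9 and Usp18 were called in each fit that left out a sample. The ligands Ifnb1 and Ifna4 were at 0 in all 4 samples, and Ifng was at 0 in the untreated samples and at 0.188 and 0.0778 FPKM in the 5-AZA samples.

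Most other interferon-stimulated genes were called higher. Of 35 tested, 31 (88.6%, against 13.1% of all genes tested) passed in the higher direction and none in the lower. The median log2 fold change was 3.41, while that of the 7 tested family members, Ifi205 included, was 2.00. This difference between lists was not tested. Their summed level was 630 and 644 FPKM in the untreated and 1601 and 1656 FPKM in the 5-AZA samples. Oas1a, a synthetase that activates RNase L, rose by 5.60 on the log2 scale (limma adjusted p = 1.40e-05), and Oasl2, a relative of it, by 5.14 (adjusted p = 2.11e-06). Ifit1, which binds foreign RNA caps, rose from 2.22 and 1.56 to 67.2 and 59.3 FPKM (log2 fold change 5.01), and Isg15, a ubiquitin-like modifier, from 2.08 and 1.33 to 55.8 and 54.1 FPKM (4.96). Ifi44 rose by 4.87 on the log2 scale (adjusted p = 2.71e-06). Oas1a lost its call without either 5-AZA sample, and the count for the list was then 23 without replicate 101 and 22 without replicate 102. Ifit2, Psmb9, Tap1 and B2m were not called.

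**Figure D4:**
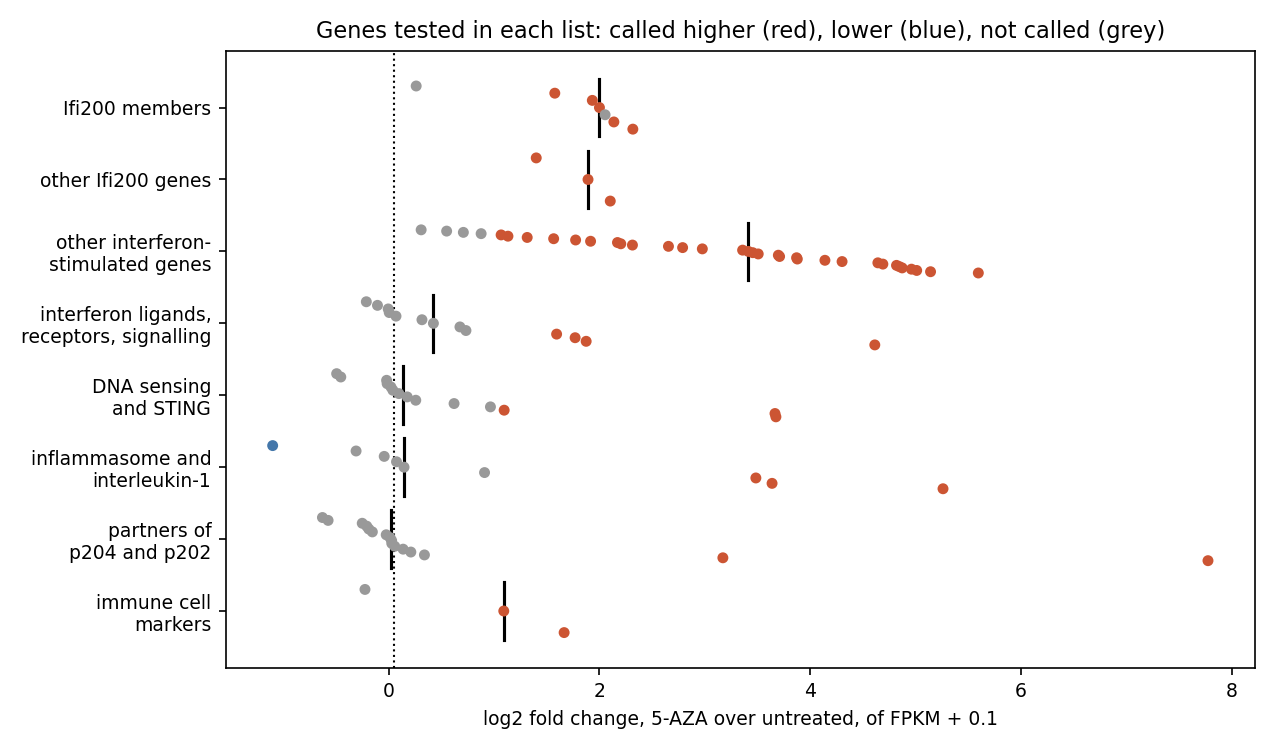
Log2 fold change (5-AZA over untreated, FPKM + 0.1) of each tested gene by list; points are genes, short black lines are list medians, and the dotted line is the median of all tested genes, 0.05. The called Ifi200 members lie from 1.58 to 2.32, Aim2 lies at 0.26, and the place of Ifi205 depends on the pseudocount. The medians are 3.41 for other interferon-stimulated genes, 0.14 for DNA sensing and 0.15 for the inflammasome list.

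Among binding partners of p204 and p202, 2 of 16 tested genes (12.5%) were called higher and none lower. This was near the 13.1% called higher over all genes tested, and the median log2 fold change was 0.02. Myog, a myogenic transcription factor, had 0.0806 and 0.101 FPKM in the untreated and 33.0 and 52.4 FPKM in the 5-AZA samples (log2 fold change 7.77, limma adjusted p = 3.13e-07). Myod1, named after its values were seen, was at 0 in both untreated samples and had 0.512 and 1.23 FPKM after 5-AZA (adjusted p = 0.000944). Rb1, which binds p204, and the Id genes Id1, Id2 and Id3, whose proteins hold back MyoD, were not called.

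Members of the family are high in blood cells, so immune cell markers were read beside them. Adgre1, C1qa, Tyrobp and Cd3e were at 0 in all 4 samples, Ptprc (CD45) was seen only in 5-AZA replicate 101, at 0.0631 FPKM, and 9 of the 14 markers were below 0.1 FPKM in every sample. The summed level of the 14 was 2.13 and 3.26 FPKM in the untreated and 3.74 and 5.73 FPKM in the 5-AZA samples, a rise carried mostly by Cd68. Of the 3 tested, 66.7% were called higher, against 13.1% of all genes tested. Cd68, a lysosomal protein also made outside blood cells, was called higher (1.16 and 1.47 against 2.27 and 3.69 FPKM, log2 fold change 1.09, limma adjusted p = 0.0191). Cd79a, named after its values were seen, was called too, with 0 and 0 against 0.288 and 0.159 FPKM (adjusted p = 0.0215). It reached the limit for testing only through the 5-AZA samples, so the share called rests partly on that limit. Cd79a lost its call when any sample was left out, and Cd68 when any but untreated replicate 2 was. Their part in the change of the family was not tested.

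The 5 genes whose values over the 4 samples lay nearest to those of Ifi202b, by Euclidean distance of centred log2 values, were Tmem119 (distance 0.0406), Angpt2 (0.0467), Gja1 (0.0593), Ahr (0.0929) and Sulf1 (0.0984). Tmem119 had 1.54 and 1.28 FPKM in the untreated and 6.03 and 5.29 FPKM in the 5-AZA samples. Gja1, which encodes connexin 43, was more abundant, with 10.2 and 8.37 against 38.8 and 34.6 FPKM. The likeness rests on 4 samples in 2 groups and says nothing of shared control.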

How the data were processed

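Ribosomal RNA was removed and stranded libraries were sequenced for 2 untreated and 2 treated samples of C3H10T1/2. The submitters' processing notes name Trimmomatic, HISAT2, Bowtie2 2.2.9, eXpress 1.5.1 and mm9, and the paper names DESeq for the comparison of the authors. The circRNA predictor is not given in the sources used here. The authors deposited FPKM values per transcript for mRNAs and lncRNAs, and RPM values per junction for circRNAs. Although mm9 is named, 2330 of 2356 host transcripts (98.9%) with listed positions lay within 1000 bases of their RefSeq span on GRCm38.p6, so coordinates are given on that build. FPKM sums per sample ran from 328410 to 361664. All RPM values were whole multiples of 1 read within 0.01, the fewest reads listed were 2, and total reads were 92903364 to 93920706.

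Transcripts were summed per gene, and log2(FPKM + 0.1) was fitted with limma 3.58.1 (lmFit, eBayes with trend) in R 4.3.3 for 13199 genes with a mean of at least 0.1 FPKM. circRNAs detected in at least 2 samples were fitted as log2(RPM + 0.0213). p-values were adjusted by Benjamini and Hochberg's procedure, and features with an adjusted p below 0.05 and over 2-fold were called. The fold change of a low gene is understated by the pseudocount. With 2 samples against 2, no permutation test can reach 0.05. Promoters were aligned with Biopython 1.88 and binomial intervals made with SciPy 1.17.1.

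The members and gene lists were chosen with earlier results of these data known. Named are the members and their circRNAs, up to 5 called genes a list and direction whose higher group reached 1 FPKM, listed genes at 0, and the 5 genes nearest to Ifi202b; the values of some listed genes are not reported here. Other pseudocounts, limits, scalings, transcript sets and the omission of each sample were tried as alternatives.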

Additional observations from a re-analysis of the deposited data

Results flagged for a closer look

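Long noncoding RNAs were not part of the comparisons, but 14 of those listed overlap the cluster, and 5 had more signal after 5-AZA than in the untreated samples, with at least 1 FPKM on average. These differences were not tested. NONMMUT003879.2, on the minus strand from 173848971 to 173913129 on chromosome 1 and so across Mndal and Mnda, had a mean of 2.48 FPKM after 5-AZA, with 0.932 and 0.654 FPKM in the untreated and 2.56 and 2.41 FPKM in the 5-AZA samples. NONMMUT003883.2 had a mean of 2.09 FPKM, with 0.458 and 0.285 against 2.60 and 1.59 FPKM. NONMMUT003881.2 and NONMMUT003882.2 had means of 1.3 and 1.05 FPKM, with 1.06 and 0.848 against 1.46 and 1.15 FPKM for the former and 0.619 and 0.380 against 1.26 and 0.847 FPKM for the latter. NONMMUT003870.2 had a mean of 2.42 FPKM that came from 5-AZA replicate 102 alone (4.83 FPKM). Reads of these RNAs and of family genes on the same strand cannot be told apart here.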

How the results depend on the processing

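With 2 samples a group, the number of samples limits every result, and a feature that was not called has not been shown to be unchanged. No paired analysis was possible because the groups share no replicate numbers. The edgeR test of whole circRNA reads was not run, since no listed value was as low as 1 read, and voom was added after seeing the data. Where a count changed, the cause was not tested, except that fewer samples or a higher limit on low values leave less to test.

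Among counts and summary values recomputed over all 4 samples, 160 moved by less than the limit (1.5 times for counts, 1 SD for changes) and 28 by more, and among the changes of single members 44 did and 11 moved by more. Genes called higher (1724) were 875 with a pseudocount of 1 FPKM, 845 with a mean of at least 1 FPKM, 1041 after quantile normalization, and 733 to 1617 with 1 sample left out. Genes called lower (174) were 86 with a pseudocount of 1 FPKM, 83 with no limit on low values, 886 after quantile normalization, and 52 to 184 with 1 sample left out. The median of all genes moved from 0.05 to -0.06 with median centring and -0.12 with quantile normalization. The summed family changed by 2.00 on the log2 scale with curated transcripts only. Members called higher (5) were 6 with a pseudocount of 0.01 FPKM and 3 with no limit on low values.

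The 3 further family genes called higher were 1 with a pseudocount of 1 FPKM, 0 with no limit, 1 with a mean of at least 1 FPKM, 1 after quantile normalization, and 0 to 2 with 1 sample left out. The 2 binding partners called were 1 with a pseudocount of 1 FPKM, with no limit, and with a mean of at least 1 FPKM. The 2 immune markers called were 0 with a pseudocount of 1 FPKM, with no limit, after quantile normalization and with curated transcripts only, 1 with a mean of at least 1 FPKM, with median centring and with eBayes without trend, and 0 to 1 with 1 sample left out. The interleukin-1 list's 1 gene called lower was 0 with no limit and 0 to 1 with 1 sample left out, the 3 STING list genes were 1 to 3 with 1 sample left out, and the 1 mesenchymal gene was 2 with curated transcripts only. circRNAs called higher and lower (0 and 0) were 1 and 7 when detected in all 4 samples, and 2 and 1 when detected in any. The change of circRNA_0241 was 2.43 when scaled to junction reads. No called change turned its direction.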
